A study of Mus musculus with 8 samples.

Results

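The ephrin, netrin and Slit guidance genes comprise 42 of the 34620 gene names in the normalized count table. They were picked by their names: the ephrins (Efna, Efnb) and Eph receptors (Epha, Ephb), the netrins (Ntn, Ntng) with their receptors Dcc, Neo1 and Unc5, and the Slits with their Robo receptors. RNA was sequenced from the hippocampus and from the prefrontal cortex (PFC) of untreated C57Bl6 mice (written C57Bl/J6 in the study's methods), 7 to 9 weeks old by the labels, with 4 libraries per region and 2 mice pooled in each library. The study's paragraph on RNA preparation gives a later age range. The mice were male according to the study, so the values describe young adult males, and a pool shows the mean of its animals and not their spread. Both regions share strain, age range and preparation and differ in the dissected tissue. Total RNA was depleted of ribosomal RNA and amplified before sequencing. All 42 genes had a mean of at least 1 normalized count (reads divided by the size factor of the library) over the 8 libraries, and all were tested among 19789 genes.

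Axons and dendrites read these cues at their surface. Ephrins stay on the membrane of one cell, the A class by a lipid anchor and the B class by a transmembrane segment, and bind Eph receptor tyrosine kinases on the next cell, where contact often leads to retraction. Netrins are secreted relatives of laminin that attract axons through Dcc and repel them when Unc5 receptors take part, while the lipid-anchored netrin-Gs bind partners at synapses. Slits are secreted and mostly repel through Robo receptors. In the adult forebrain the same molecules are known for roles at dendritic spines and synapses. Of the 42 genes, 17 encode ligands (5 ephrin-A, 3 ephrin-B, 4 netrin, 2 netrin-G and 3 Slit) and 24 encode receptors (9 EphA, 5 EphB, 6 netrin receptors and 4 Robo). Unc5cl, which resembles the Unc5 receptors in name and in part of its sequence, was placed in neither class.

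The Eph receptors differ in their regional levels and in their kinase domains, and a link between these was not tested. Catalytic codons are shown first. Each line gives the stretch of 25 codons of the mouse coding strand that runs from the catalytic loop to the magnesium-binding loop, from the NCBIM37 genome with the exons of GENCODE M1. The capitals mark codon 5, where an active kinase has its catalytic aspartate, and codon 23, where it has the aspartate that holds magnesium. The last 3 receptors are shown because they passed the threshold higher in the hippocampus. The other 9 receptors with both aspartates, not shown, did not pass, nor did Epha10.
Ephb6: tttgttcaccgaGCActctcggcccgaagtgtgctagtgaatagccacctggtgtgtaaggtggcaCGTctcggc
Epha10: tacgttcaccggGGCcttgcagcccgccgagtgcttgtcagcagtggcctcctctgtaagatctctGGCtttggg
Epha4: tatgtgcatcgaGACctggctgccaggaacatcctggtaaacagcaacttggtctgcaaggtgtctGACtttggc
Epha6: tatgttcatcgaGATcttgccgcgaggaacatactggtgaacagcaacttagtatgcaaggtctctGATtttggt
Epha7: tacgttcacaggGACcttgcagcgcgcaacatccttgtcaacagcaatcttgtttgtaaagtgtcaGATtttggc

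These stretches lie in coding exons, at chr6:41568657-41568731 on the plus strand for Ephb6 (exon 14 of 18), chr4:124591256-124591330 on the plus strand for Epha10 (exon 11 of 15), chr1:77379492-77379566 on the minus strand for Epha4 (exon 13 of 18), chr16:59775417-59775491 on the minus strand for Epha6 (exon 14 of 18) and chr4:28877596-28877670 on the plus strand for Epha7 (exon 13 of 17). Of the 14 Eph receptor genes, 12 had a codon for aspartate (GAC or GAT) at both positions. Ephb6 and Epha10 had it at neither, and both are known as Eph receptors without kinase activity.

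The libraries held between 3164964 and 16636500 reads assigned to genes, both in the hippocampus group (replicates 4 and 1), and a count of 0 allows up to 6.93 normalized counts in the shallowest library (3 reads, counting error only). Hippocampus replicate 2 stood apart from its group, with the lowest weight of the 8 libraries (0.287) when limma weighted them by how well they followed their group, and the results below are also given without it. The tissue labels were set beside marker lists. These lists were chosen with earlier results of these data known, so they are not an independent check of the labels. All 10 hippocampal neuron markers passed higher in the hippocampus, and 8 of 9 cortical layer markers and all 10 striatal projection neuron markers passed higher in the PFC. The PFC libraries were not alike: the summed hippocampal markers were 11356 and 10591 in PFC replicates 1 and 2 and 7097 and 5209 in replicates 3 and 4, against 18435 to 22136 in the hippocampus. The granule cell gene Prox1 had 1283, 1214, 733 and 343 normalized counts in PFC replicates 1 to 4. The regions were therefore also compared with PFC replicates 3 and 4 alone.

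Between the regions, 12 of the 42 guidance genes passed an adjusted p of 0.05 in limma, of which 8 were higher in the hippocampus and 4 were higher in the PFC. Over all genes tested the share past this threshold was 5.68% (2.55% as genes higher in the hippocampus, 3.13% as genes higher in the PFC), against 28.6% of the guidance genes. Epha6, Slit1, Unc5b, Epha7, Epha4, Dcc, Unc5c and Robo1 were higher in the hippocampus, and Efna5, Ephb6, Efnb2 and Robo2 were higher in the PFC. Fold changes here are log2 of hippocampus over PFC on normalized counts plus 1, so that a negative value means higher in the PFC, and they spanned -1.20 for Efna5 to 0.95 for Epha6 among the 12. The tissue was sequenced whole, so fewer cells of a type and less RNA per cell cannot be told apart. The values of the regions did not overlap in 15 guidance genes (9 higher in the hippocampus, 6 higher in the PFC), or 35.7%. Over all genes tested this share was 11.8%, with 5.54% for genes higher in the hippocampus and 6.27% for genes higher in the PFC. In edgeR 14 guidance genes passed (all genes tested: 5.91%) and in DESeq2 16 (all genes tested: 7.39%), and both sets held the 12.

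**Figure D1:**
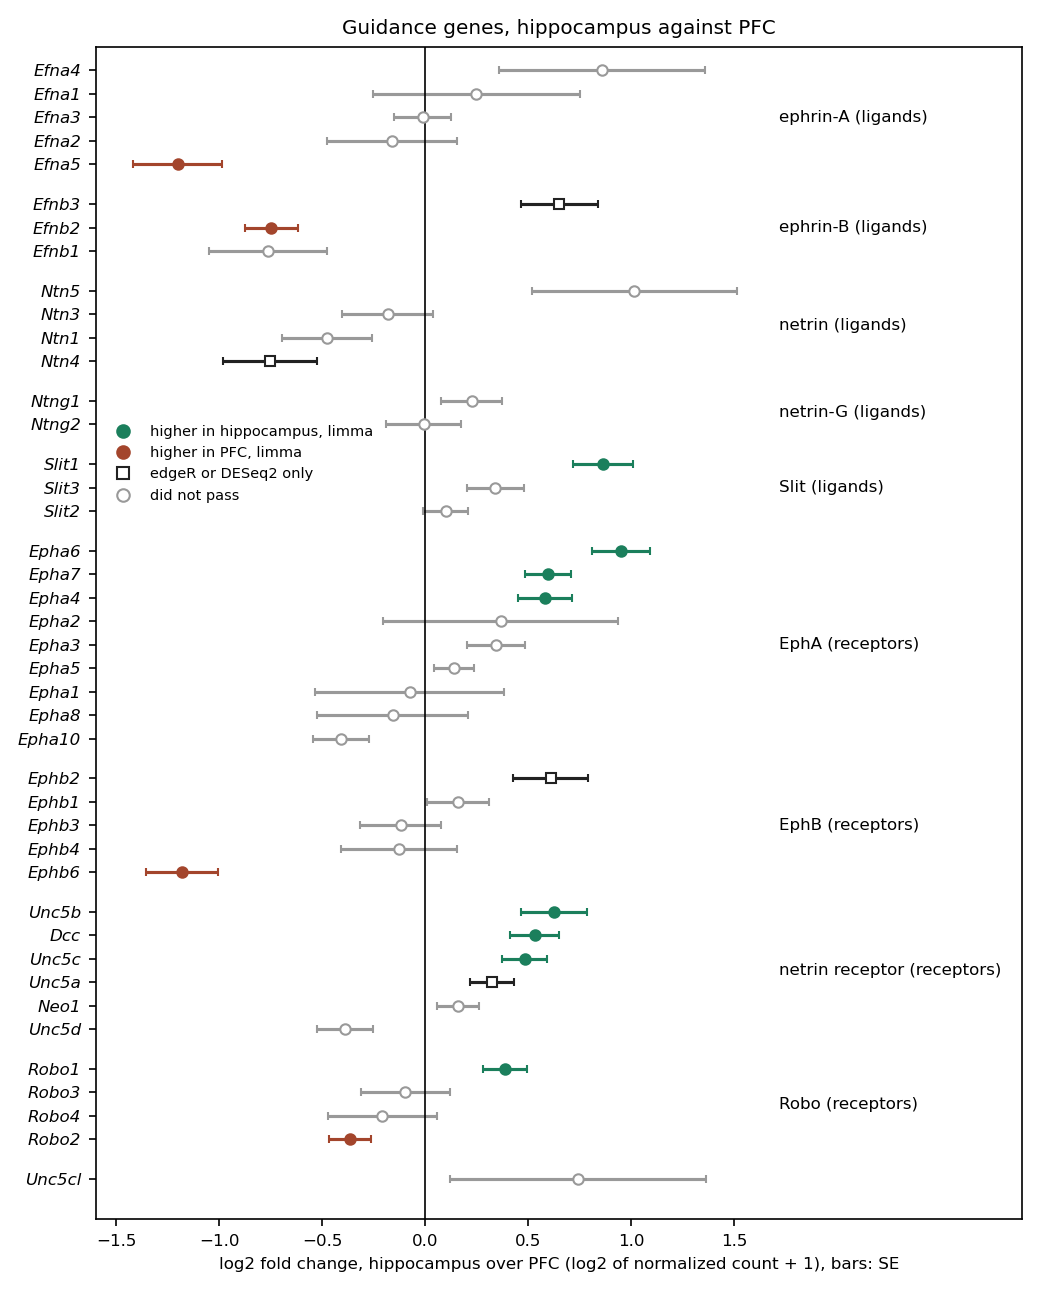
Log2 fold change of hippocampus over PFC for all 42 guidance genes, grouped by subfamily (points: limma estimate on normalized counts plus 1; bars: SE; n = 4 libraries per region). The 8 green points passed higher in the hippocampus and the 4 red points higher in the PFC, and the 4 open squares passed in DESeq2, and Efnb3 and Ephb2 of them in edgeR too, but not in limma.

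Among the 24 receptors 7 passed as higher in the hippocampus and 2 as higher in the PFC, or 37.5% in all, and the median log2 fold change was 0.16. Among the 17 ligands 1 passed higher in the hippocampus (Slit1) and 2 higher in the PFC (Efna5 and Efnb2), or 17.6% in all, and the median was -0.0073. The median over all genes tested was 0.0038. The difference between receptors and ligands is a description of the genes on the list and carries no test, and it rested on single libraries. Without PFC replicate 3 the calls were 3 of 24 receptors (2 higher in the hippocampus, 1 higher in the PFC, 12.5%) and 3 of 17 ligands (17.6%). Without hippocampus replicate 1 or 3 they were 4 of 24 receptors (16.7%) and 3 of 17 ligands. Without hippocampus replicate 4 they were 20.8% of receptors and 23.5% of ligands. The receptor share stayed the higher one without hippocampus replicate 2 (45.8%, against 35.3%). It also did so without PFC replicate 1 (37.5%, against 29.4%), 2 (25%, against 17.6%) or 4 (20.8%, against 17.6%). Of all genes tested, 2.9% to 11.3% passed in these fits. At an unadjusted p under 0.05, which 16.9% of all genes tested met, there were 14 receptors and 8 ligands.

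Leaving out hippocampus replicate 2 raised the number of guidance genes past the threshold to 17, against 11.3% of all genes in that fit, and kept all 12. Efnb1, Efnb3, Epha10, Ntn4 and Unc5a were the 5 added. With libraries weighted by how well they followed their group 19 passed, against 12.3% of all genes, and the 12 were kept. With PFC replicates 3 and 4 alone, a comparison chosen after seeing the data, 9 passed, against 4.7% of all genes, and Dcc, Robo1 and Unc5b no longer did. There were 7 without hippocampus replicate 1 (all genes tested: 3.69%), 7 without hippocampus replicate 3 (3.37%) and 6 without PFC replicate 3 (2.9%), so that fewer calls among the guidance genes went with fewer calls among all genes. Those 6, which passed without any 1 library, were Efna5, Efnb2, Ephb6, Epha6, Epha7 and Slit1.

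**Figure D2:**
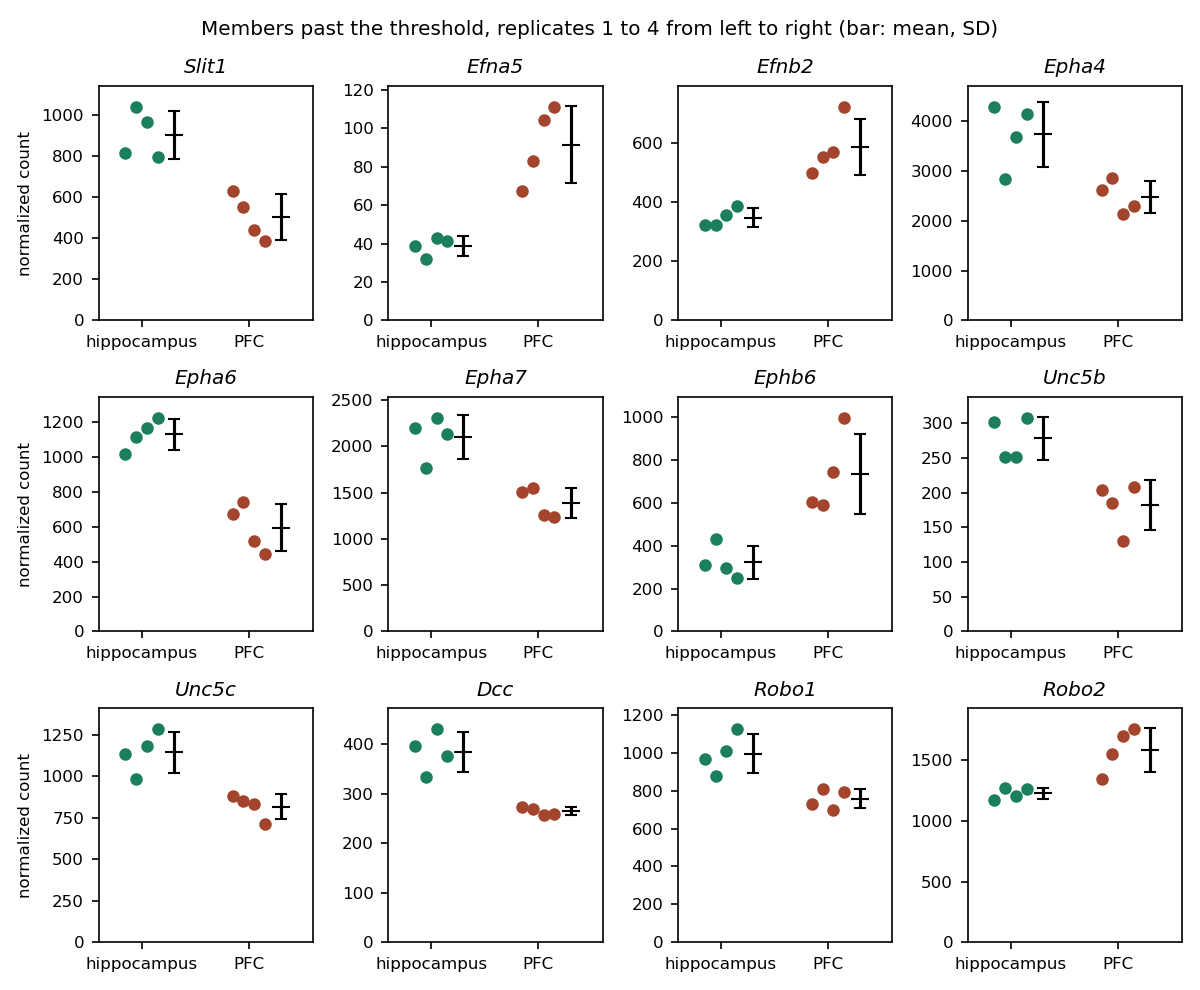
Normalized counts of the 12 guidance genes past the limma threshold, hippocampus left of PFC in each panel (points: replicates 1 to 4 from left to right; bars: mean and SD, n = 4; each vertical axis starts at 0). Epha4 is the gene whose regions overlap, since hippocampus replicate 2 (2838) lies below PFC replicate 2 (2868).

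Of the 8 ephrin ligands 2 passed, both higher in the PFC (all genes tested: 5.68%). Efna5 (chr17:62953533-63230666, minus strand) encodes ephrin-A5, known for repelling axons in topographic maps. Its normalized counts were 38.5, 31.8, 43.1 and 41.6 in hippocampus replicates 1 to 4, against 67.6, 82.9, 105 and 111 in PFC replicates 1 to 4. Every PFC library lay above every hippocampus library, and PFC replicates 3 and 4 were the highest. The log2 fold change was -1.20 (SE 0.22, adjusted p = 0.0029 in limma), the largest of the 12 in size.

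Efnb2 (chr8:8617434-8661239, minus strand) encodes ephrin-B2, a transmembrane ephrin of neurons and of arterial endothelium. It had 321, 322, 356 and 388 normalized counts in the hippocampus, against 499, 554, 570.0 and 721 in the PFC. The regions did not overlap, and PFC replicate 4 stood highest. This gave a log2 fold change of -0.75 (SE 0.13, adjusted p = 0.0019 in limma). The endothelial markers, listed because ephrin-B2 is also a vessel gene, had 0 of 8 past the threshold. Their sums ran from 1030.3 to 1130.4 in the hippocampus, against 1069.7 to 1166 in the PFC. The part of vessel cells in the Efnb2 difference was not tested.

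Efnb3 is the ephrin known for the midline barrier to corticospinal axons. It passed as higher in the hippocampus in both count tests but not in the main limma fit. In limma it also passed with quantile normalization, TMM scaling or weighted libraries, and without hippocampus replicate 4 or PFC replicate 1. It had 652, 1212, 777 and 584 normalized counts in the hippocampus, against 626, 512, 412 and 444 in the PFC. Hippocampus replicate 2 was far above the rest, and hippocampus replicate 4 lay below PFC replicate 1. A log2 fold change of 0.65 (SE 0.19) missed the threshold in limma (adjusted p = 0.053) and met it in edgeR (0.033), in DESeq2 (0.015) and in limma without hippocampus replicate 2 (0.026, log2 fold change 0.44). Beside Efnb2 this gave a log2 ratio of Efnb3 to Efnb2 counts of 1.16 ± 0.55 in the hippocampus (0.59 to 1.91) and -0.24 ± 0.45 for the PFC (-0.70 to 0.32; SD, n = 4 each), with no overlap.

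The other ephrins did not pass. Efnb1 had a log2 fold change of -0.76 (adjusted p = 0.16 in limma, 0.0096 without hippocampus replicate 2). Within the ephrin-A class Efna3 had the highest mean, 243 ± 37.0 normalized counts in the hippocampus, against 243 ± 16.8 in the PFC (SD, n = 4 each), and Efna4 the lowest, at 8.70 ± 1.46 in the hippocampus, against 5.19 ± 3.83 in the PFC. Means named as the highest or lowest of a subfamily are normalized counts over all 8 libraries, without regard to gene length. Efna1 and Efna4 rested on as few as 2 reads and 1 read in a library.

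Among the EphA receptors, 3 of 9 passed and all 3 were higher in the hippocampus (all genes tested: 5.68%, and 2.55% as higher in the hippocampus). Epha6 (chr16:59653309-60605357, minus strand) had 1017, 1115, 1167 and 1222 normalized counts in the hippocampus, against 673, 739, 521 and 445 in the PFC. The lowest hippocampus library exceeded the highest PFC library, and PFC replicates 3 and 4 were the lowest. Its log2 fold change was 0.95 (SE 0.14, adjusted p = 0.00065 in limma), and 1.23 with PFC replicates 3 and 4 alone. A share of 2.02% of its exonic bases also belongs to Gm9017, and reads there could not be divided by strand.

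Epha7 (chr4:28740281-28894649, plus strand), a receptor known from the sorting of cortical projections, had 2198, 1766, 2304 and 2135 normalized counts in the hippocampus, against 1505, 1552, 1255 and 1239 in the PFC. The regions did not overlap, and hippocampus replicate 2 was the lowest of its group. Epha7 had a log2 fold change of 0.60 (SE 0.11, adjusted p = 0.0037 in limma).

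Epha4 (chr1:77363760-77511663, minus strand), which binds ephrins of both classes and is known for shaping spines of hippocampal pyramidal cells, had 4280.4, 2838, 3675 and 4144 normalized counts in the hippocampus, against 2613, 2868, 2133 and 2302 in the PFC. Hippocampus replicate 2 fell within the PFC values and the other 3 lay above them. The log2 fold change was 0.58 (SE 0.13, adjusted p = 0.013 in limma), and without hippocampus replicate 2 it was 0.71 (adjusted p = 1.6e-05). The call was lost without hippocampus replicate 1 (adjusted p = 0.052), PFC replicate 3 (0.074) or PFC replicate 4 (0.062).

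Of the remaining EphA receptors, Epha5 had the highest mean, 1408 ± 111 normalized counts in the hippocampus, against 1276 ± 82.3 in the PFC, and Epha2 the lowest, 4.50 ± 1.82 in the hippocampus, against 3.86 ± 3.40 in the PFC (SD, n = 4 each). The log2 ratio of Epha6 to Epha5 counts was -0.32 ± 0.13 in the hippocampus, against -1.13 ± 0.25 in the PFC, without overlap. Epha10, named here after its values were seen because it is the second receptor that lacks both aspartate codons, had 138, 168, 171 and 150.2 normalized counts in the hippocampus, against 192, 218, 203 and 217 in the PFC. All 4 PFC libraries were above the hippocampus libraries. Its log2 fold change of -0.41 (SE 0.14) did not pass in limma (adjusted p = 0.10) and passed without hippocampus replicate 2 (0.033).

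Of the 5 EphB receptors 1 passed (all genes tested: 5.68%), Ephb6 (chr6:41555481-41570508, plus strand), the receptor printed first above. It had 311, 432, 295 and 252 normalized counts in the hippocampus, against 607, 593, 743 and 996 in the PFC. The regions were separate, with PFC replicate 4 the highest of all. Ephb6 had a log2 fold change of -1.18 (SE 0.18, adjusted p = 0.00065 in limma), and -1.33 without hippocampus replicate 2. Both receptors without the aspartate codons had all 4 PFC values above all 4 hippocampus values, which 6.27% of all genes tested did, and over all libraries Epha10 did not pass in limma, edgeR or DESeq2. Of the 12 receptors with both codons 3 passed (25%, against 5.68% of all genes tested), all higher in the hippocampus. The other 9 did not, among them Epha1, Epha8, Ephb3 and Ephb4 with log2 fold changes below 0. The difference between receptors with and without the codons was not tested.

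Ephb2, which is known for clustering glutamate receptors at synapses, had 186, 287, 228 and 185 normalized counts in the hippocampus, against 188, 132, 149 and 111 in the PFC. PFC replicate 1 overlapped the hippocampus values and the other 3 lay below them. Its change of 0.61 on the log2 scale (SE 0.18) did not pass in limma (adjusted p = 0.064) and did in edgeR (0.049) and DESeq2 (0.025). The log2 ratio of Ephb2 to Ephb6 was -0.54 ± 0.16 in the hippocampus, against -2.34 ± 0.61 in the PFC (SD, n = 4 each), with no overlap. Ephb1, Ephb3 and Ephb4 had log2 fold changes of 0.16, -0.12 and -0.13, none past the threshold. The highest mean of the class over all 8 libraries other than that of Ephb6 was that of Ephb1, 433 ± 99.4 in the hippocampus, against 383 ± 44.4 in the PFC, and the lowest that of Ephb4, 35.6 ± 9.42 in hippocampus libraries, against 38.8 ± 10.9 in PFC libraries (SD, n = 4 each).

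None of the 4 netrins or 2 netrin-Gs passed in limma, and 3 of 6 netrin receptors did, all higher in the hippocampus (all genes tested: 5.68%). The difference was not tested, and without hippocampus replicate 3 or PFC replicate 3 none of the 6 ligands and 0 of 6 receptors passed. At an unadjusted p under 0.05 (all genes tested: 16.9%) there were 2 netrins (Ntn1 and Ntn4), no netrin-G and 5 netrin receptors. In edgeR none of the 6 ligands passed and in DESeq2 Ntn4 did.

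Dcc (chr18:71418392-72510723, minus strand), the attractive netrin receptor, had 396, 335, 430.1 and 377 normalized counts in the hippocampus, against 274, 269.9, 256 and 259 in the PFC. The PFC values lay within a narrow band below every hippocampus value. Its log2 fold change was 0.53 (SE 0.12, adjusted p = 0.012 in limma). The call was lost without hippocampus replicate 1 (adjusted p = 0.051), hippocampus replicate 3 (0.063) or PFC replicate 3 (0.053).

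Unc5c (chr3:141128528-141497888, plus strand), a repulsive netrin receptor, had 1132, 985, 1181 and 1282 normalized counts in the hippocampus, against 879, 850.0, 831 and 710.1 in the PFC. The regions did not overlap. In log2 terms the change was 0.48 (SE 0.11, adjusted p = 0.014 in limma), with adjusted p of 0.054, 0.056, 0.051 and 0.063 without hippocampus replicate 3 or 4 or PFC replicate 3 or 4.

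Unc5b (chr10:60225358-60294329, minus strand), a relative that is also known from the tips of growing vessels, had 302, 251, 252 and 307 normalized counts in the hippocampus, against 204, 186, 130.3 and 208 in the PFC. PFC replicate 3 was the lowest of the 8 libraries, and the regions did not overlap. Unc5b had a log2 fold change of 0.63 (SE 0.16, adjusted p = 0.027 in limma), and the adjusted p was 0.11 without PFC replicate 3, 0.092 without hippocampus replicate 1, 0.084 without hippocampus replicate 4, 0.058 without PFC replicate 2 and 0.053 without hippocampus replicate 3.

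Unc5a had 748, 732, 856 and 718 normalized counts in the hippocampus, against 649, 564, 573 and 652 in the PFC. The regions were separate, by a small margin. The log2 fold change of 0.33 (SE 0.11) passed in DESeq2 (adjusted p = 0.043) and not in limma (0.093) or edgeR (0.090). Unc5d, an Unc5 receptor that binds Flrt2, had a log2 fold change of -0.39 (adjusted p = 0.13 in limma). The log2 ratio of Unc5c to Unc5d was 1.63 ± 0.13 in the hippocampus, against 0.76 ± 0.26 in the PFC (SD, n = 4 each), without overlap. Neo1, the netrin and RGM receptor neogenin, had the highest mean of the netrin receptors, at 2039 ± 193 in the hippocampus, against 1822 ± 146 in the PFC, and did not pass (log2 fold change 0.16, adjusted p = 0.48). The lowest mean was that of Unc5b.

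The means of the 4 netrins lay between 2.70 (Ntn5 in the PFC) and 20.3 (Ntn4 in the PFC) normalized counts per kb of exon. Ntn4, a netrin of basement membranes, had 55.4, 40.4, 34.1 and 48.5 normalized counts in the hippocampus, against 53.8, 84.1, 84.5 and 80.7 in the PFC. PFC replicate 1 fell among the hippocampus values. Its log2 fold change of -0.75 (SE 0.23) passed in DESeq2 (adjusted p = 0.024) and in limma without hippocampus replicate 2 (0.048), and not in limma over all libraries (0.070) or in edgeR (0.052).

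Over all 8 libraries Ntn4 had the highest mean of the 4 netrins, although Ntn1 and Ntn3 (48.1 and 48.0) exceeded it (44.6) in the hippocampus. Ntn5 had the lowest, 9.53 ± 4.13 in the hippocampus, against 4.26 ± 2.44 in the PFC, where 25.9% of the exonic bases also belong to Sec1 and the counting did not use strand. Ntn1, the founding member, had a log2 fold change of -0.48 (adjusted p = 0.28 in limma). Its regions were separate only by a very small margin, with a highest hippocampus value of 55.4 and a lowest PFC value of 55.9. Of the netrin-Gs, Ntng1 had the higher mean, 255 ± 32.4 in hippocampus libraries, against 219 ± 36.5 in PFC libraries, and Ntng2 the lower, 163 ± 42.9 in hippocampus libraries, against 161 ± 23.4 in PFC libraries (SD, n = 4 each). Neither passed.

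The Slit genes had log2 fold changes above 0 in all 3 cases, and 1 passed (all genes tested: 5.68%). Slit1 (chr19:41674747-41818155, minus strand), the Slit known mainly from the nervous system, had 812, 1036, 965 and 797 normalized counts in the hippocampus, against 630.1, 554, 438 and 385 in the PFC. The regions did not overlap, and PFC replicates 3 and 4 were the lowest. The log2 fold change was 0.86 (SE 0.15, adjusted p = 0.0018 in limma), and 1.13 with PFC replicates 3 and 4 alone. Slit3 had a log2 fold change of 0.34 (adjusted p = 0.21) and Slit2, with the lowest mean of the 3 over all 8 libraries but the highest in the PFC, one of 0.10 (adjusted p = 0.74).

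The main Slit receptors of neurons went in opposite directions. Robo1 (chr16:72663394-73046340, plus strand) had 967, 875, 1009 and 1123 normalized counts in the hippocampus, against 730.0, 807, 699 and 790.1 in the PFC. Robo2 (chr16:73892551-74412070, minus strand), which lies on the same chromosome, had 1170.2, 1270.1, 1200.1 and 1259 in the hippocampus, against 1346, 1549, 1696 and 1752 in the PFC. For neither gene did the regions overlap. On the log2 scale the change was 0.39 for Robo1 (SE 0.11, adjusted p = 0.040 in limma) and -0.37 for Robo2 (SE 0.10, adjusted p = 0.046).

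Both calls were close to the threshold. Robo1 passed in limma without hippocampus replicate 2 (adjusted p = 0.0020), and without each of the other 7 libraries its adjusted p was between 0.062 (PFC replicate 2) and 0.15 (PFC replicate 3). Robo2 passed without hippocampus replicate 2 (0.0075) and without PFC replicate 1, and the adjusted p was between 0.086 (hippocampus replicate 4) and 0.17 (PFC replicate 3) without the others. Within a library the log2 ratio of Robo1 to Robo2 was -0.27, -0.54, -0.25 and -0.17 in the hippocampus, against -0.88, -0.94, -1.28 and -1.15 in the PFC. The ratio was lower in each PFC library than in any hippocampus library. This follows from the separate, opposite values of the genes and is not a further result. Per kb of exon, Robo1 averaged 104 normalized counts in the hippocampus, against 79.3 in the PFC, and Robo2 averaged 74.2 in the hippocampus, against 96.0 in the PFC. On this scale Robo1 was the higher of the pair in the hippocampus and Robo2 in the PFC. That order depends on the merged exon lengths (9547 bases for Robo1, 16516 for Robo2), since Robo2 had more normalized counts than Robo1 in every library. Robo2 had the highest mean of the Robo genes and Robo4, a receptor of endothelium, the lowest, at 37.1 ± 10.8 in the hippocampus, against 41.9 ± 6.53 in the PFC. Robo3 and Robo4 had log2 fold changes of -0.10 and -0.21, not past the threshold.

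Levels were compared between genes per kilobase of exon. In both regions Epha4 was the highest guidance gene, with 590.2 normalized counts per kb in the hippocampus, against 392 in the PFC, followed by Neo1 with 276 in the hippocampus, against 247 in the PFC. Next came Efnb3 in the hippocampus (253 per kb) and Ephb6 in the PFC (195 per kb), while Ephb6 ranked 13 of 42 in the hippocampus (85.5 per kb). Efnb3 was the highest ligand in both regions, with 157 per kb in the PFC. At the other end Unc5cl, which had between 0 and 6 reads per library, and Epha2 were the lowest, below 1 per kb in both regions. A mean of at least 10 normalized counts was reached by 38 of the 42 genes.

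**Figure D3:**
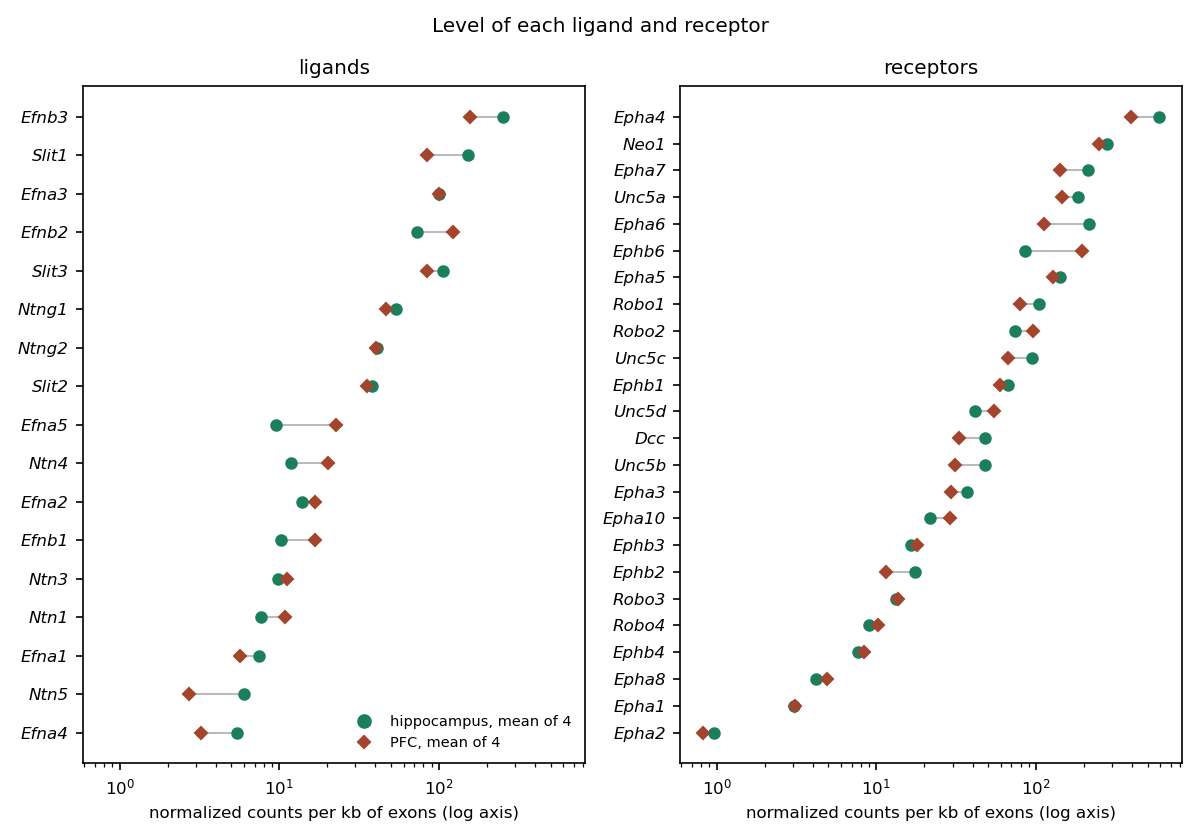
Mean normalized count per kb of exon for the 17 ligands (left) and the 24 receptors (right), on a log axis (circles: hippocampus; diamonds: PFC; mean of 4 libraries each; lines join the regions). Epha4, at 590.2 in the hippocampus, against 392 in the PFC, is the highest of all, and Ephb6 and Efna5 lie clearly to the right in the PFC.

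Summed per kb over the class, receptors amounted to 2308 ± 120 normalized counts per kb in the hippocampus, against 1908 ± 81.5 in the PFC, and ligands to 899.7 ± 111 in the hippocampus, against 779 ± 37.4 in the PFC (SD, n = 4 each). The receptor sums did not overlap (2129 to 2374 in the hippocampus, against 1812 to 2011 in the PFC), and the ligand sums did (790.5 to 1033 in the hippocampus, against 724 to 802 in the PFC). The ratio of receptor to ligand sums was 2.60 ± 0.42 in the hippocampus, against 2.45 ± 0.070 in the PFC, with overlap. Such sums weigh the highest genes most and do not describe each member. By subfamily, EphA sums were 1224 ± 111 in the hippocampus, against 839 ± 100.3 in the PFC, without overlap. Epha4 alone had 590.2, against 392, and 6 of the 9 EphA genes did not pass. Slit sums were 297 ± 36.0 in the hippocampus, against 204 ± 29.7 in the PFC, also without overlap, with Slit1 at 152, against 84.7. The EphB sums went the other way, 194 ± 41.4 in the hippocampus, against 292 ± 42.1 in the PFC, and overlapped through hippocampus replicate 2 (256), above PFC replicate 2 (251). That direction came from Ephb6, with 85.5 per kb in the hippocampus, against 195 in the PFC. Ephb1 (66.8, against 59.0) and Ephb2 (17.6, against 11.5) had higher means in the hippocampus. Ephb3 (16.5, against 18.0) and Ephb4 (7.68, against 8.37) were slightly higher in the PFC. Netrin sums were 35.5 ± 3.66 in the hippocampus, against 44.9 ± 3.69 in the PFC, without overlap. Most of that gap came from Ntn4 (11.9, against 20.3), and no netrin passed in the main limma fit. Robo sums were 200.4 ± 9.52 in the hippocampus, against 199 ± 12.8 in the PFC, and overlapped.

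Markers of cell types moved with several of these genes. Across PFC replicates 1 to 4 the summed hippocampal neuron markers were 11356, 10591, 7097 and 5209, and the summed striatal projection neuron markers were 2743, 3524, 3735 and 5344, against 1371 to 1642 in the hippocampus. Epha6 and Slit1, higher in the hippocampus, were also higher in PFC replicates 1 and 2 than in replicates 3 and 4. Efna5 and Ephb6, higher in the PFC, were lower in PFC replicates 1 and 2 than in replicates 3 and 4. Robo1 and Unc5b, which also passed higher in the hippocampus, did not follow this order. In PFC replicates 1 to 4 Robo1 had 730.0, 807, 699 and 790.1 normalized counts and Unc5b 204, 186, 130.3 and 208.

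The cortical layer sums were 3559 to 4278 in the hippocampus, against 8900.3, 9641, 12076 and 11525 in PFC replicates 1 to 4. The oligodendrocyte markers passed higher in the hippocampus in 6 of 6 cases, with sums of 107220 to 114752 in the hippocampus, against 52164 to 76225 in the PFC, and the choroid plexus markers in 7 of 10, with sums of 3480.3 to 7952 in the hippocampus, against 563 to 3014 in the PFC. Ependymal markers passed as higher in the hippocampus in 3 of 5 cases, oligodendrocyte precursor markers in 2 of 6 and thalamic markers in 2 of 5. Olfactory bulb markers passed as higher in the PFC in 3 of 5 cases, with sums of 138 to 186 in the hippocampus, against 335 to 486 in the PFC. Astrocyte and microglia markers had 0 of 6 and 0 of 5 past the threshold in limma. The astrocyte sums still did not overlap, at 61367 to 69940.5 in the hippocampus, against 50219 to 58687 in the PFC. The astrocyte gene Aqp4, higher in the hippocampus, missed the threshold in limma (adjusted p = 0.053) and met it in edgeR (0.036) and DESeq2 (0.019). Microglia sums overlapped, at 1982 to 2292 in the hippocampus, against 2035 to 2265 in the PFC. No listed marker was at 0 in all libraries of a region. With PFC replicates 3 and 4 alone the log2 fold changes were -1.46 for Efna5 and -1.44 for Ephb6. The part of these cell types in the differences of the guidance genes was not tested.

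**Figure D4:**
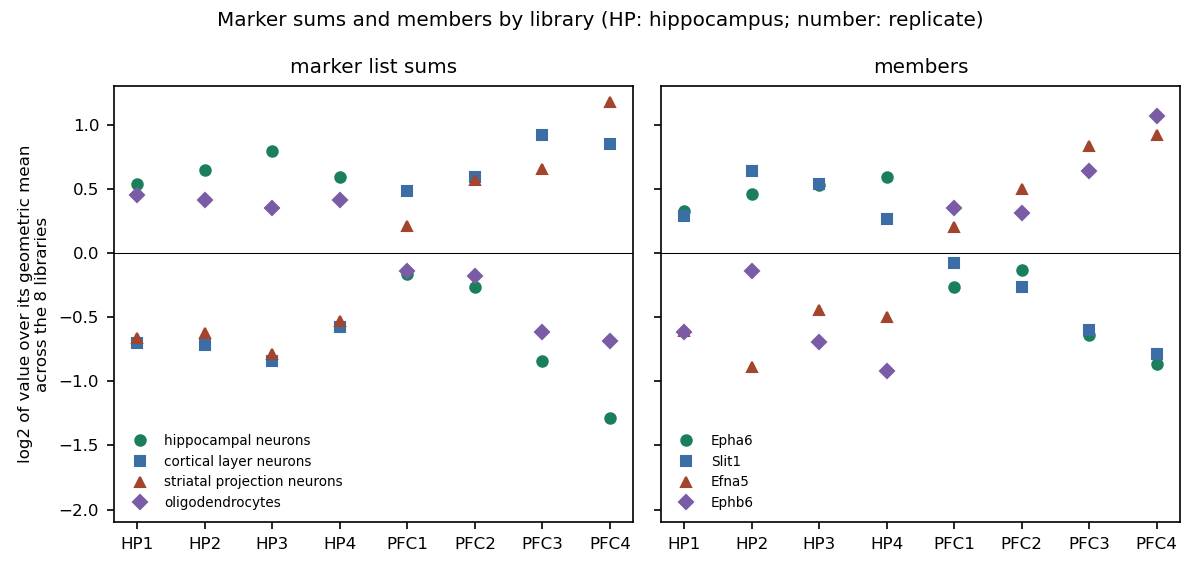
Summed markers of 4 cell types (left) and 4 guidance genes (right) in each library, as log2 of the value over its geometric mean across the 8 libraries (HP: hippocampus; the number is the replicate). PFC replicates 1 and 2 lie closer to the hippocampus libraries than PFC replicates 3 and 4 do for the hippocampal marker sum and for Epha6, Slit1, Efna5 and Ephb6.

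Beyond the receptors and ligands, 64 genes that carry or shape their signals were listed from general knowledge, and 63 were found and tested. Of these 10 passed, 4 as higher in the hippocampus and 6 as higher in the PFC, or 15.9% (all genes tested: 5.68%), and the median log2 fold change was 0.034. Ngef, the exchange factor ephexin-1 that acts below EphA4, was among the 8 with the largest change of the 10 past the threshold, which are named here. It had 385, 583, 431 and 462 normalized counts in the hippocampus, against 989.8, 899, 1186 and 1367 in the PFC. The regions did not overlap, and the log2 fold change was -1.25 (SE 0.15, adjusted p = 6.6e-05 in limma). Arhgef15, or ephexin-5, a relative that restrains excitatory synapses below EphB2, had a log2 fold change of -1.11 (SE 0.21, adjusted p = 0.0040). Vav3, an exchange factor for Rac that Eph receptors recruit, was higher in the hippocampus at 0.89 (SE 0.21, adjusted p = 0.019, and up to 0.089 without 1 library, hippocampus replicate 1).

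Of the Slit and netrin partners, Arhgap39, the relative of a fly Robo adaptor, had a log2 fold change of 0.58 (SE 0.11, adjusted p = 0.0030 in limma). Plekhh1, the relative of a worm protein of netrin repulsion, had one of 0.65 (SE 0.11, adjusted p = 0.0021). Higher in the PFC were Lrrc4c, the netrin-G1 ligand NGL-1, at -0.58 (SE 0.12, adjusted p = 0.0084, and 0.052 without PFC replicate 3) and Flrt2, a ligand of Unc5 receptors, at -0.57 (SE 0.095, adjusted p = 0.0016). Tubb3, a neuronal tubulin that binds Dcc, had -0.72 (SE 0.17, adjusted p = 0.017, and up to 0.073 without 1 library, PFC replicate 4), and its regions overlapped through hippocampus replicate 2.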

How the data were processed

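The deposited signal per gene and library is a read count divided by the DESeq size factor of the library; the authors aligned reads with TopHat2 2.0.9 to NCBIM37 and then used HTSeq 0.6.0, summing by gene name and ignoring strand. FPKM values were not used here. The DESeq version is not given in the sources used here. Multiplied by the size factor, 100% of the values fell within 1e-06 of a whole read, and the libraries held 3164964 to 16636500 reads.

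The main test was limma 3.58.1 with a variance trend (R 4.3.3, two-sided) on log2(normalized count + 1) over 19789 genes with a mean of at least 1, with Benjamini-Hochberg adjustment over all of them and a threshold of 0.05. The pseudocount draws fold changes of low genes toward 0. As alternatives, edgeR 4.0.16 (its quasi-likelihood test, 1170 genes called) and DESeq2 1.42.0 (1463 genes called) were run on the recovered reads. The labels call the libraries biological replicates, each a pool of 2 mice. The study's total of 8 mice would make the pools of both regions the same, but which libraries share a pool is not stated, so the fit was not paired.

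Genes with values per library are those past the threshold in limma, edgeR or DESeq2, and Epha10, which was added after its values were seen. The others are given by subfamily, with the highest and lowest mean, and of the signalling partners past the threshold the 8 with the largest change were named. The members and lists were chosen with earlier results of these data known. The pairs of genes set in a ratio were picked by hand, most with fold changes of opposite sign. A ratio without overlap is therefore not an independent result. Levels per kb used merged exons of GENCODE M1, which held all 42 genes. Of these, 30 share no exonic base with another gene. Figures were drawn with matplotlib 3.10.9, and tables were made with Python 3.11.15, numpy 2.4.6 and pandas 2.3.3.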

Additional observations from a re-analysis of the deposited data

Results flagged for a closer look

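In groups of 4 libraries, a value was singled out when its gap to the nearest other, over the range of the group, exceeded Dixon's critical value. This occurred in 4 of the 84 groups examined (42 genes in 2 regions), and chance gives about 1 in 20. Epha1 had 17.6 normalized counts in PFC replicate 2 and 7.16 to 8.07 in the other PFC libraries (gap over range 0.913). Epha3 had 178 in hippocampus replicate 4 and 218 to 223 in the others (0.902). Ephb1 had 317 in PFC replicate 4 and 399 to 410.4 in the others (0.881). Ntn4 had 53.8 in PFC replicate 1 and 80.7 to 84.5 in the others (0.876). None of these 4 genes passed the limma threshold.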

How the results depend on the processing

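The 12 calls held under pseudocounts of 0.5 and 5, a minimum mean of 10, edgeR and DESeq2. Without a filter Robo1 and Robo2 were lost (receptors higher in the PFC: 1), and under TMM scaling Robo2 was lost (also 1). Ligands that passed as higher in the hippocampus numbered 2 in edgeR, DESeq2, quantile normalization, TMM scaling and with array weights. At a minimum mean of 10 the median over the guidance genes was 0.046. With array weights 7 guidance genes (4 ligands) passed as higher in the PFC, and the receptor median was 0.29. In that fit 9 partners passed as higher in the hippocampus and 11 as higher in the PFC (12.3% of all genes passed). With PFC replicates 3 and 4 alone, 5 guidance genes (4 receptors) passed as higher in the hippocampus (4.7% of all genes passed in either direction). The receptor median was 0.21. The causes of these shifts were not tested.

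With the replicate number as a block, 8 guidance genes passed (3.68% of all genes). Of these 5 (4 receptors) had higher hippocampus values and 3 (1 receptor) higher PFC values. Dcc, Robo1, Robo2 and Unc5c were lost. The deviations of same-numbered libraries from their region correlated between -0.13 and 0.029, and 1 of 8 libraries correlated best with its own number. With 4 libraries per region of unlike depth, these values cannot tell whether the numbers mark shared pools.

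Leaving out each library in turn, 3 to 10 guidance genes passed as higher in the hippocampus and 3 to 7 as higher in the PFC. In the same order the calls were 1 to 2 and 2 to 4 for ligands and 2 to 8 and 1 to 3 for receptors. For partners they were 2 to 8 and 3 to 11. The share of all genes past the threshold in these fits ran from 2.9% (without PFC replicate 3) to 11.3% (without hippocampus replicate 2). The receptor median ran from 0.13 to 0.23.

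Of genes that never passed, some changed sign. Ntng2 had 0.039 in edgeR, 0.029 in DESeq2, 0.017 with quantile normalization, 0.00038 with TMM scaling and 0.16 with array weights. Efna3 had 0.013, 0.0077 and 0.11 and Epha1 0.12, 0.069 and 0.35 in edgeR, DESeq2 and with array weights. Ephb1 had -0.029 with array weights, and with PFC replicates 3 and 4 alone Epha1 had 0.21 and Epha2 -0.40. Without 1 library the ranges were -0.14 to 0.63 for Efna1, -0.47 to 0.059 for Efna2, -0.077 to 0.093 for Efna3, -0.39 to 0.20 for Epha1, -0.47 to 0.020 for Epha8, -0.25 to 0.021 for Ephb3, -0.23 to 0.082 for Ephb4, -0.16 to 0.11 for Ntng2 and -0.27 to 0.092 for Robo3.

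Depth limited the low genes: Efna1, Efna4, Epha1, Epha2, Ntn5 and Unc5cl had at most 3 reads in their shallowest library.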
